A study of Mus musculus with 9 samples.

Results

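The clustered histone genes are the genes named Hist1h to Hist4h in mouse, which encode the bulk of the linker histone H1 and of the core histones H2A, H2B, H3 and H4. They were taken from a table of 46517 genes as every row whose symbol begins with Hist1h, Hist2h, Hist3h or Hist4h, which gave 71 rows with 70 distinct symbols. Hist2h2bb stands in 2 rows: ENSMUSG00000105827 is the coding gene, and ENSMUSG00000050936 is the non-coding Gm42743 in the GENCODE annotation. There were 6 H1, 20 H2A, 20 H2B, 12 H3 and 13 H4 rows. In the mouse build mm10, the Hist1 cluster on chromosome 13 held 56 of them (21715763 to 51203065), the Hist2 cluster on chromosome 3 held 11 (96219865 to 96279001), the Hist3 cluster on chromosome 11 held 3 (58948920 to 58956830), and Hist4h4 stood alone on chromosome 6 (136801553 to 136804415). The pseudogenes Hist1h2aj, Hist1h2al and Hist3h2bb-ps are among them, and Hist1h2al lies far from the rest of the Hist1 cluster.

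Levels were measured in total RNA of 2 lymph nodes (animals 455 and 508) and 4 spleens (343, 508, 547 and 1 whose column carried no animal number) of plckGAPDH mice, and in 3 spleens of wild-type mice (1, 4 and 5). All mice were C57BL/6 and older than 18 months, and the plckGAPDH mice were described as developing tumours. In the plckGAPDH line a Gapdh transgene is driven by the promoter of Lck, a kinase gene of T cells; the number of founder lines was not given in the sources used here. The protocol speaks of splenocytes for every sample, and animal 508 gave a spleen and a node. The column of the unnumbered spleen is named rateB, while those of 343 and 547 hold rateA. A listed plckGAPDH spleen sample has no column of its own. Whether the unnumbered spleen came from a further animal or from a numbered one such as 547 was not settled, so the 4 plckGAPDH spleens count libraries. Values are FPKM, that is fragments scaled by gene length and by the size of the library. Since the labels do not say how samples were taken, a p-value covers only the spread between the samples of its fit. These were the 7 spleens in the comparison of spleens and all 9 samples in that of the nodes.

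The libraries differed in content. Gapdh stood at 430, 505, 890 and 894 FPKM in plckGAPDH spleens 343, 508, 547 and the unnumbered spleen, against 299, 348 and 338 FPKM in wild-type spleens 1, 4 and 5, and at 554 and 312 FPKM in lymph nodes 455 and 508. Wild-type spleen 5 stood apart: 4 markers of erythroid precursors (Klf1, Alas2, Hbb-bs, Hba-a1) summed to 45240.5 FPKM there, against 1.58 to 1261 FPKM in the other 8 libraries. It was also the only library with Y-linked Eif2s3y above 0 (30.5 FPKM). Xist, an RNA of the inactive X chromosome, stood at 0.09 FPKM there, against 31.15 to 59.71 FPKM in the other 8 libraries. By these genes wild-type spleen 5 came from a male and the other libraries from females, and the part of sex in the histone levels was not tested. The 5 plasma cell markers summed to 2317 and 2563 FPKM in the nodes and to 4390 FPKM in plckGAPDH spleen 508, against 70.3 to 323 FPKM in the other 6 libraries. B cell markers summed to 284 to 1525 FPKM and T cell markers to 84.3 to 535 FPKM, so both lymphocyte types were present in every library. Spic, a factor of the red pulp macrophages of the spleen, stood at 2.45 and 0.55 FPKM in nodes 455 and 508, at 1.87 to 9.80 FPKM in plckGAPDH spleens and at 5.11 to 31.3 FPKM in wild-type spleens. The 5 macrophage markers (Adgre1, Cd68, Vcam1, Spic, Csf1r) summed to 86.0 and 10.6 FPKM in nodes 455 and 508. Their sum was 25.1 to 115.8 FPKM in plckGAPDH spleens and 52.5 to 223.7 FPKM in wild-type spleens. Cd68, Csf1r and Vcam1 were higher in node 455 than in any plckGAPDH spleen. Markers particular to lymph node were not examined.

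Replication-dependent histone genes are transcribed in S phase, when new DNA has to be packed into nucleosomes. Their mRNAs have no introns and, unlike other mRNAs, end in a stem-loop in place of a poly(A) tail. The stem-loop is bound by SLBP, which takes part in 3′ end processing, export and translation, and the mRNAs are degraded when DNA synthesis stops. Libraries made from poly(A) RNA miss most of these transcripts, whereas total RNA libraries such as these hold them. Mki67, which encodes the proliferation antigen Ki-67 and is present in cycling cells, is given as a comparison only.

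The stem-loop is the feature these mRNAs share. The letters GGCNCTTNTCAGNGCC, searched on the transcript strand, were found in 34 of 71 members (47.9%) and in 40 of 55450 genes of the GENCODE transcripts (0.0721%). In the other members no match says only that the letters are not in the annotated transcript. Only the letters N could vary in this search, so forms that differ elsewhere could not be found. Among the matches, the H1, H2A, H2B and H3 members shared a single 16-base form, and the H4 members had others. The sequences below are from mm10 (GRCm38), 5′ to 3′, with the stem-loop in capitals, and were chosen to show 1 member of each class, the variant form in Hist1h4a and the member of chromosome 6.
Hist1h1c, chr13:23739507-23739532, + strand: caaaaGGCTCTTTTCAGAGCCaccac
Hist1h2ab, chr13:23751567-23751592, + strand: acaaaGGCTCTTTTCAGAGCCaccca
Hist1h2bg, chr13:23571838-23571863, + strand: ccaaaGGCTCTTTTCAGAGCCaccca
Hist1h3b, chr13:23752815-23752840, + strand: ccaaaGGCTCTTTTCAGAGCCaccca
Hist1h4f, chr13:23551286-23551311, - strand: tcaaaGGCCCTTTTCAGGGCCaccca
Hist4h4, chr6:136803993-136804018, - strand: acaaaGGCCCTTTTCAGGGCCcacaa
Hist1h4a, chr13:23760795-23760820, - strand: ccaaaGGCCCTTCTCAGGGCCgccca
Counted from 1 at the 5′ end of the stem-loop, the form of 7 H4 members differs from that of the other classes by T4C and A13G, a pair of changes on opposite sides of the stem. Hist1h4a carries T4C, A13G and, in the loop, T8C.

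The promoters of the members also share letters. In RefSeq promoters of GRCm38.p6, which span 250 bases before to 50 bases after a gene's start, 62 members had an entry. The octamer ATTTGCAT, known as the binding site of POU factors such as Oct-1, was found on either strand in 7 of 18 H2A and 6 of 16 H2B promoters and in 0 of the 28 promoters of the other classes, against 1.74% of 32851 promoters in all. CCAAT, the motif of NF-Y, stood in 53 of 62 members (85.5%) against 37.4% of all promoters: all 50 promoters of H1, H2A, H2B and H3 genes had it, and 3 of 12 H4 promoters. TATAAA stood in 35 of 62 members (56.5%), against 13.6% of all promoters. No motif overlapped another in the stretch printed here, which is the region between the RefSeq starts of the divergent genes Hist1h2ae and Hist1h2bg, read on the + strand, with CCAAT (also as ATTGG), ATTTGCAT and TATAAA in capitals. It was chosen because Hist1h2bg is the H2B gene with the highest mean FPKM and because 1 region serves an H2A and an H2B gene.
Hist1h2ae and Hist1h2bg, chr13:23571221-23571399, + strand: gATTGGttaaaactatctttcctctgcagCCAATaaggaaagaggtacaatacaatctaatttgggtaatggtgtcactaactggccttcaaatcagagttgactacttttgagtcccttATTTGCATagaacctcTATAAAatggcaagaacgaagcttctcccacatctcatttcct

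Summed over all 71 members in FPKM as deposited, histone RNA was at a higher level in 3 of 4 plckGAPDH spleens than in any wild-type spleen. In spleens 547 and unnumbered this held under every scaling tried, while the places of 508 and 343 turned with the scaling. Whether spleens 547 and unnumbered came from different animals was not settled. The sum was 3850 FPKM in plckGAPDH spleen 343, 6748 FPKM in 508, 22944 FPKM in 547 and 12428 FPKM in the unnumbered spleen, against 3579, 3078 and 5451 FPKM in wild-type spleens 1, 4 and 5. Spleen 547 thus stood far above the rest, and on this scale spleen 343 lay within the range of the wild-type spleens. As a share of the whole FPKM column, the sum was 0.331%, 0.288%, 1.77% and 0.951% in plckGAPDH spleens 343, 508, 547 and the unnumbered spleen, against 0.267%, 0.299% and 0.323% in wild-type spleens 1, 4 and 5. On that scale spleen 508 lay within the wild-type range and spleen 343 just above it. After median-of-ratios scaling the sums were 3507, 8550, 16443 and 9521 in the plckGAPDH spleens, against 2811, 3524 and 4085 in the wild-type spleens, which left 508 above the wild-type range and 343 inside it. Column sums differed more than 2-fold between libraries, so both scalings are given beside the deposited values. Mitochondrial ribosomal RNA took 48.7%, 29.3%, 24.8% and 33.9% of estimated fragments in plckGAPDH spleens 343, 508, 547 and the unnumbered spleen. In wild-type spleens 1, 4 and 5 it took 37.9%, 53.5% and 23.6%, and its part in the ranking was not tested. Spleen 547 also had the highest erythroid marker sum of the plckGAPDH spleens, 1261 FPKM against 16.6 to 230.2 FPKM in the other 3, and the highest B cell marker sum, 934 FPKM against 483 to 600.4 FPKM. The 5 markers of neutrophil precursors (Mpo, Elane, Prtn3, Ctsg, Camp) summed to 36.3, 73.0, 109.75 and 60.4 FPKM in plckGAPDH spleens 343, 508, 547 and the unnumbered spleen, against 212, 0.74 and 6.61 FPKM in wild-type spleens 1, 4 and 5. All 5 had a positive log2 fold change (median 1.05), against 51.6% of all genes. At a limma FDR under 0.05, 0 of them were called, against 0.206% higher and 1.23% lower of all genes. The part of these cells in the histone levels was not tested. The means were 11493 ± 8425 FPKM (SD, n = 4) in plckGAPDH spleens and 4036 ± 1251 FPKM (SD, n = 3) in wild-type spleens, a ratio of 2.85. Without spleen 547 the ratio was 1.90, and without wild-type spleen 5 it was 3.45. In bulk samples, more cells of a type and more RNA per cell cannot be told apart.

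**Figure D1:**
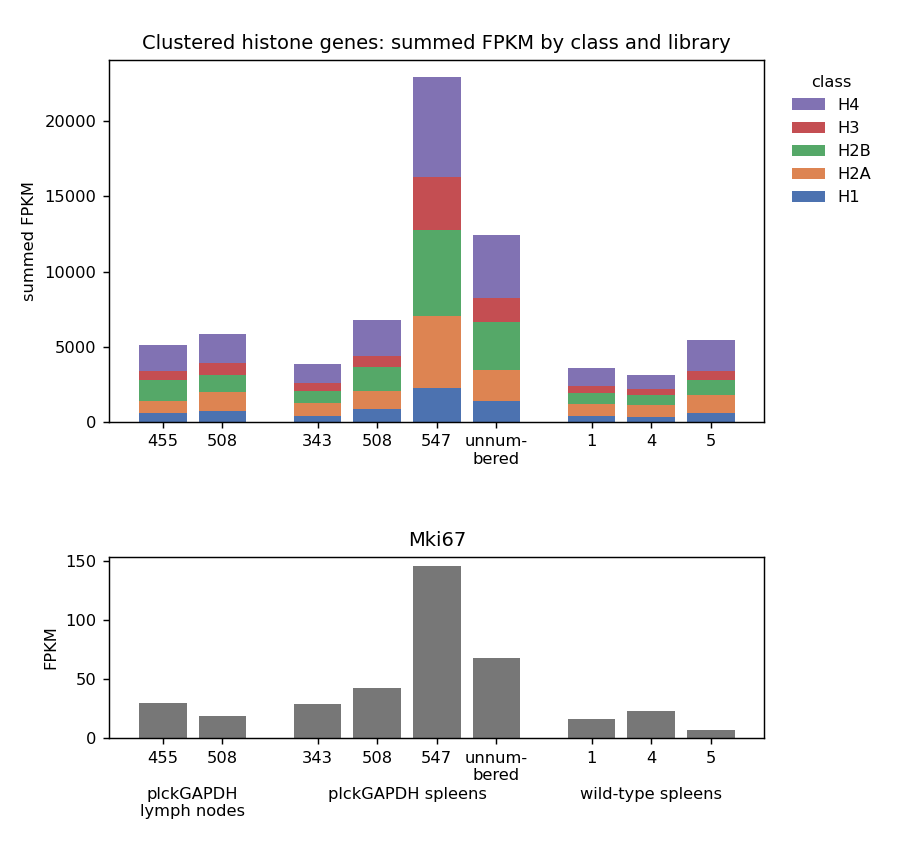
The upper panel stacks the summed FPKM of the 5 histone classes in each library, and the lower panel shows Mki67 FPKM in the same libraries; each bar is 1 library, with no error. Spleen 547 reaches 22944 FPKM and the unnumbered spleen 12428 FPKM, while the 3 wild-type spleens lie between 3078 and 5451 FPKM.

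In FPKM as deposited, Mki67 ordered the plckGAPDH spleens in the same way. It stood at 28.6, 42.5, 146 and 68.2 FPKM in plckGAPDH spleens 343, 508, 547 and the unnumbered spleen, against 15.8, 22.8 and 6.37 FPKM in wild-type spleens 1, 4 and 5. The groups did not overlap in FPKM as deposited but did under both scalings, and the log2 fold change of 2.07 (SE 0.58) did not pass the test across all genes (limma FDR 0.166). Scaling does not alter a ratio within a library. Per FPKM of Mki67, the histone sum was 135, 159, 157 and 182 FPKM in the plckGAPDH spleens in the same order, against 227, 135 and 856 FPKM in wild-type spleens 1, 4 and 5. The plckGAPDH spleens lay close together in this ratio, and wild-type spleen 5, the library with the high erythroid markers, held the lowest Mki67 beside the highest histone sum of the wild-type spleens; the part of erythroid cells in that was not tested. In the lymph nodes the ratio was 172 (455) and 313 (508).

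**Figure D2:**
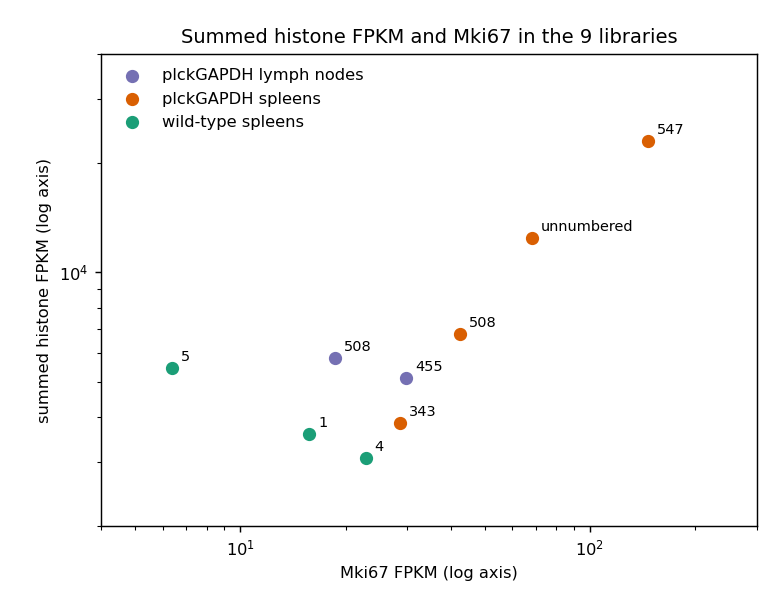
Each point is 1 library, with Mki67 FPKM on the horizontal and summed histone FPKM on the vertical axis, both logarithmic. The 4 plckGAPDH spleens hold 135 to 182 FPKM of histone RNA per FPKM of Mki67, while wild-type spleen 5 lies far to the left at 856.

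The makeup of the sum varied less than its size. H4 genes took from 29.0% to 34.8% of it in plckGAPDH spleens, against 30.0% to 37.6% in wild-type spleens, and H1 genes took 9.72% to 12.8% in plckGAPDH spleens, against 10.2% to 10.8% in wild-type spleens. The H2A share was 21.8%, 17.7%, 20.8% and 16.8% in plckGAPDH spleens 343, 508, 547 and the unnumbered spleen, against 23.1%, 24.9% and 22.8% in wild-type spleens 1, 4 and 5. The H2B share was 21.7%, 23.1%, 25.1% and 25.7% in the plckGAPDH spleens, against 20.4%, 21.9% and 17.7% in the wild-type spleens. H2A thus took a smaller share in each plckGAPDH spleen than in each wild-type spleen, by a narrow margin between spleen 343 and wild-type spleen 5. The shares of the other classes overlapped, and no test was run on any share. The ratio of group means was 2.88 for H1, 2.35 for H2A, 3.59 for H2B, 3.31 for H3 and 2.59 for H4, and these ratios share the same libraries.

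Across the genes 1 by 1, the members lay on the higher side in plckGAPDH spleens but none passed the test. Of 71 members, 63 reached 1 FPKM in 3 spleens and were tested with limma on log2(FPKM + 1) together with all 12607 genes that did so. At a false discovery rate (FDR) under 0.05, 0 members were called higher, against 0.206% of all genes tested, and 0 lower, against 1.23%. Without adjustment, 26 of 63 members had p under 0.05, all of them higher, against 4.18% of all genes; 0 were lower, against 4.67%. The log2 fold change was positive for 60 of 63 members, against 51.6% of all genes, above 1 for 46 of 63, against 5.11%, and below -1 for 0 of 63, against 5.09%. The median over the members was 1.26 and that over all genes 0.02.

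The range of the members was -0.44 to 2.02, and the smallest FDR among them was 0.228 (limma), for Hist1h4f. In 12 of 63 members every plckGAPDH spleen lay above every wild-type spleen, against 3.39% of all genes: Hist1h2ae, Hist1h2af, Hist1h2ap, Hist1h2bf, Hist1h2bh, Hist1h2bk, Hist1h2bl, Hist1h2bm, Hist1h3b, Hist2h3c2, Hist1h4a and Hist1h4f. After median-of-ratios scaling this count was 14, against 6.11% of all genes, and with columns scaled to one total 12, against 1.84%. No member lay below in every plckGAPDH spleen, against 3.88% of all genes. The calls depend on single libraries: 7 members passed without spleen 343 (Hist1h1b, Hist1h2bl, Hist1h2bp, Hist1h2br, Hist1h4a, Hist1h4f and Hist1h4j), all higher, against 0.661% of all genes called higher in that setting. With quality weights 49 of 63 passed, all higher, against 7.07% of all genes called higher; here limma weighted samples by their quality, and wild-type spleen 1 weighed 24.8 and every other spleen between 0.296 and 2.04. The estimate of these weights stopped before it met its convergence tolerance. The median log2 fold change was 0.84 without spleen 547. A fold change on this scale understates the change of low genes.

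**Figure D3:**
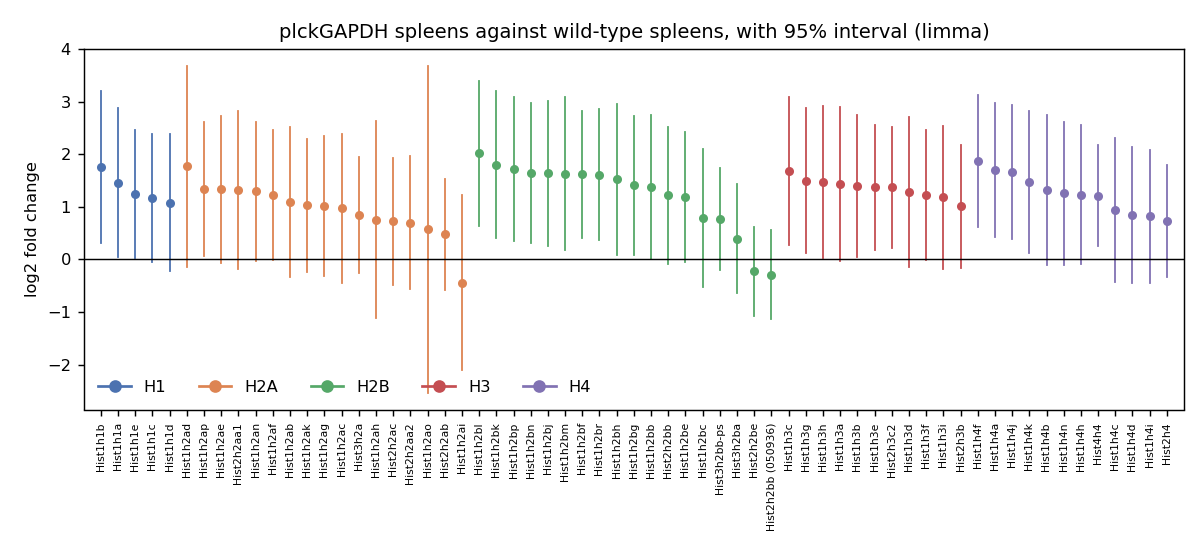
Points give the log2 fold change on the log2(FPKM + 1) scale of each of the 63 tested members, plckGAPDH spleens (n = 4) over wild-type spleens (n = 3), with the 95% interval of limma as a line, sorted within the 5 classes. The points run from -0.44 to 2.02, and 60 of 63 lie above 0.

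The plckGAPDH spleens did not take part alike. In FPKM as deposited, spleen 547 lay above all 3 wild-type spleens in 60 of 63 members, against 45.8% of all genes, and the unnumbered spleen did so in 58 of 63, against 33.4%. Spleen 508 did so in 42 of 63 members, against 14.1%, and spleen 343 in 12 of 63, against 16.4%. Spleen 343 was thus near the share of all genes. Relative to the wild-type mean, the median member stood at 0.973 in spleen 343, 1.49 in 508, 6.67 in 547 and 3.16 in the unnumbered spleen. The order 547, unnumbered, 508, 343 from high to low held for 50 of 63 members, against 13.9% of all genes. Spleen 547 was also the highest of the 7 spleens in 57 of 63 members, against 37.1% of all genes. The counts of 547 and the unnumbered spleen above all wild-type spleens were again 60 and 58 after median-of-ratios scaling, against 39.7% and 30.3% of all genes, and with columns scaled to one total, against 53% and 45.1%. That of 508 was 58 after median-of-ratios scaling (36.1% of all genes) and 18 with columns scaled to one total (5.33%), and that of 343 was 15 (23.4%) and 29 (31%). The order of the 4 spleens held for 34 members after median-of-ratios scaling (7.91% of all genes) and for 15 with columns scaled to one total (3%).

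**Figure D4:**
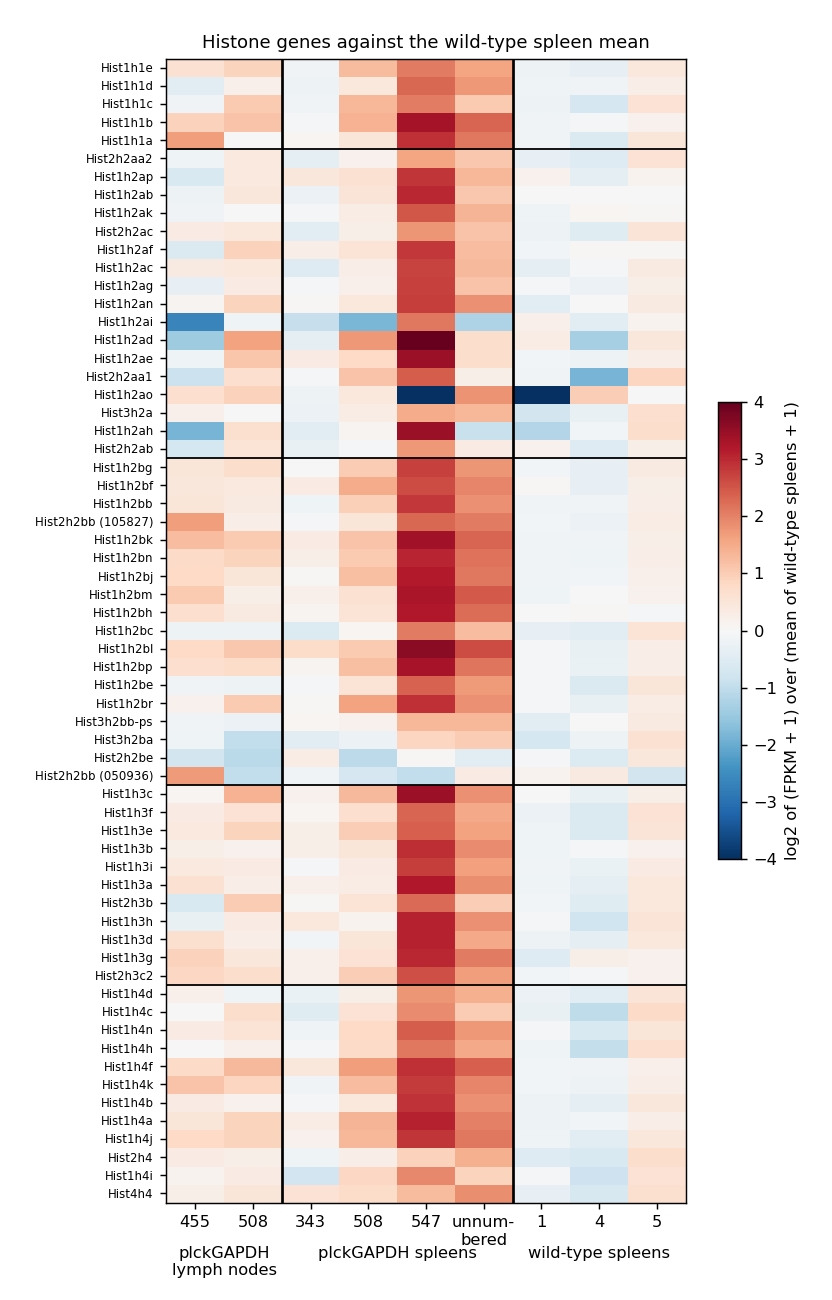
Each row is 1 of the 63 tested members, grouped by class from H1 at the top to H4 at the bottom with the highest mean first, and each column is 1 library; colour gives log2 of FPKM + 1 over the wild-type spleen mean + 1, from blue (lower) to red (higher), and differences beyond 4 take the end colours. In the column of spleen 547, 60 of 63 members lie above all wild-type spleens, and dark blue cells mark Hist1h2ao at 0 in spleen 547 and wild-type spleen 1; the digits behind Hist2h2bb are the last digits of its gene ID.

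Linker histones H1 bind the DNA between nucleosomes. Hist1h1e had the highest mean of the class, with 123, 329, 581 and 407 FPKM in plckGAPDH spleens 343, 508, 547 and the unnumbered spleen, against 118, 108 and 181 FPKM in wild-type spleens 1, 4 and 5 (log2 fold change 1.24, SE 0.56, limma FDR 0.55). The groups overlapped through spleen 343. Hist1h1d had 101, 155, 577 and 392 FPKM in the plckGAPDH spleens, against 103, 106 and 140.5 FPKM in the wild-type spleens, with a log2 fold change of 1.08. Hist1h1c had 78.6, 218, 362 and 178 FPKM, against 75.1, 53.8 and 131 FPKM, a log2 fold change of 1.16. Spleen 343 lay within the wild-type range in Hist1h1c and below all wild-type spleens in Hist1h1d. Spleen 547 was highest in both. Within the H1 sum, Hist1h1b took 9.11%, 11.4%, 16.7% and 13.8% in plckGAPDH spleens 343, 508, 547 and the unnumbered spleen, against 7.44% to 10.5% in the wild-type spleens. Hist1h1t, the linker histone of testis, was at 0 to 0.20 FPKM in every library.

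H2A and H2B form the dimers that flank the H3-H4 core of the nucleosome. Among H2A genes, Hist2h2aa2 had the highest mean, with 280.5, 415, 1084 and 781 FPKM in plckGAPDH spleens 343, 508, 547 and the unnumbered spleen, against 292, 254 and 553 FPKM in wild-type spleens 1, 4 and 5. Its log2 fold change was 0.70 (limma FDR 0.89), and wild-type spleen 5 lay above spleens 343 and 508. Hist1h2ap had 154, 173, 816 and 282 FPKM, against 127, 84.3 and 125 FPKM, with no overlap and a log2 fold change of 1.34 (limma FDR 0.53). Hist1h2ab had 56.3, 96.2, 547 and 142 FPKM, against 67.4, 65.8 and 66.6 FPKM. The wild-type values of Hist1h2ab lay within 2 FPKM of each other, and its plckGAPDH values differed most from spleen to spleen through 547.

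Among H2B genes, Hist1h2bg had the highest mean, with 127, 255, 835 and 426 FPKM in plckGAPDH spleens 343, 508, 547 and the unnumbered spleen, against 117, 98.5 and 160.2 FPKM in wild-type spleens 1, 4 and 5 (log2 fold change 1.41, limma FDR 0.51). Hist1h2bf had 129, 292, 641 and 407 FPKM, against 108, 81.2 and 121 FPKM, with no overlap and a log2 fold change of 1.62 (limma FDR 0.32). Hist1h2bb had 85.8, 186, 691 and 347 FPKM, against 86.5, 86.3 and 116 FPKM. In Hist1h2bg and Hist1h2bb spleen 343 lay below wild-type spleen 5. The H2B gene Hist1h2bl had the highest log2 fold change of all members, 2.02 (SE 0.63, limma FDR 0.238), with 30.2, 37.8, 229 and 115 FPKM, against 17.4, 14.3 and 22.0 FPKM. Hist1h2bk followed among H2B genes with 1.80 (limma FDR 0.35), from 78.3, 138, 647 and 312 FPKM, against 56.0, 56.5 and 72.9 FPKM. Both lay higher in every plckGAPDH spleen than in any wild-type spleen, and the limma FDR of Hist1h2bl ran from 0.00314 to 0.688 over the alternatives.

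H3 and H4 form the tetramer at the centre of the nucleosome. Hist1h3c had 58.9, 131, 573 and 188.5 FPKM in plckGAPDH spleens 343, 508, 547 and the unnumbered spleen, against 53.7, 42.8 and 61.8 FPKM in wild-type spleens 1, 4 and 5, with a log2 fold change of 1.69 (limma FDR 0.41). Spleen 343 lay below wild-type spleen 5, and the other 3 plckGAPDH spleens lay above all wild-type spleens. Hist1h3f had 72.7, 109.6, 348 and 200.7 FPKM, against 58.9, 45.3 and 102 FPKM. Hist1h3e had 68.3, 118, 309 and 181 FPKM, against 52.3, 39.2 and 83.8 FPKM. Both repeat that order, with log2 fold changes of 1.23 and 1.37.

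Hist1h4d was the member with the highest mean FPKM of all. It stood at 321, 451, 1297 and 1022 FPKM in plckGAPDH spleens 343, 508, 547 and the unnumbered spleen, against 324, 278 and 552 FPKM in wild-type spleens 1, 4 and 5, with a log2 fold change of 0.85 (limma FDR 0.83). Hist1h4c had 199.5, 417, 1038 and 556 FPKM, against 225, 136 and 468 FPKM, and Hist1h4n had 174, 342, 1053 and 659 FPKM, against 185, 129 and 278 FPKM. In these 3 abundant H4 genes wild-type spleen 5 was the highest wild-type library. Hist1h4f stood at 122, 289, 692 and 474 FPKM, against 83.2, 81.7 and 104 FPKM, with no overlap, a log2 fold change of 1.87 (SE 0.58) and a limma FDR of 0.228; over the alternatives its FDR ran from 0.00338 to 0.599.

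The small clusters stood at low levels. Hist3h2a had 8.68, 12.9, 30.9 and 27.2 FPKM in plckGAPDH spleens 343, 508, 547 and the unnumbered spleen, against 5.83, 8.24 and 16.9 FPKM in wild-type spleens 1, 4 and 5. Hist3h2ba had 4.72, 5.73, 13.3 and 14.95 FPKM, against 3.82, 5.89 and 10.96 FPKM, and the pseudogene Hist3h2bb-ps had 8.06, 8.58, 20.6 and 20.4 FPKM, against 5.19, 7.48 and 9.90 FPKM. Hist4h4 had 7.94, 8.86, 13.2 and 20.5 FPKM, against 3.74, 2.82 and 8.26 FPKM, with a log2 fold change of 1.22 (limma FDR 0.37). Hist3h2ba and Hist4h4 were highest in the unnumbered spleen rather than in 547, unlike most members. The median log2 fold change was 1.34 over 49 tested members of Hist1, 0.73 over 10 of Hist2 and 0.77 over 3 of Hist3. The Hist2 rows include Hist2h2be (-0.23) and the non-coding row of Hist2h2bb (-0.29), which did not exceed 2.75 FPKM in any spleen. Others of them share much of their sequence with other genes, so a difference between clusters cannot be read from these medians.

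Of the 3 members with a negative log2 fold change, Hist1h2ai had 21.2, 10.7, 179 and 16.9 FPKM in plckGAPDH spleens 343, 508, 547 and the unnumbered spleen, against 47.0, 30.3 and 45.2 FPKM in wild-type spleens 1, 4 and 5 (log2 fold change -0.44, limma FDR 0.98). It was thus below every wild-type spleen in 3 plckGAPDH spleens and above them in 547. Hist2h2be stood at 0.34 to 2.35 FPKM in plckGAPDH spleens and 0.87 to 2.75 FPKM in wild-type spleens (-0.23). The non-coding row of Hist2h2bb stood at 0 to 1.48 FPKM and 0.19 to 1.55 FPKM (-0.29). The 8 untested members were at or near 0 throughout: Hist1h2aa, a testis H2A, was listed at 0 in all 9 libraries, Hist1h2ba, its H2B partner, reached 0.18 FPKM in 1 library, and Hist1h1t, Hist1h2aj, Hist1h2al, Hist1h2bq, Hist1h4m and Hist2h3c1 did not exceed 2.07 FPKM in any.

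Values of single members carry a limit, because many histone genes share long stretches of sequence. The sums carry it too where the other gene is no member: Hist2h2aa1, Hist2h3b, Hist2h3c1 and Hist2h3c2 share most with Gm20634. Likewise Hist3h2a shares most with Trim17 and Hist4h4 with Gm10845. In 29 of 71 members under 50% of the 75-base windows of the transcript were found in no other gene, and Hist2h2aa2 and Hist2h3c1 had 0% such windows. Hist3h2a had 69.4% and Hist4h4 94.6%. Hist1h2ao (6.90% unique) stood at 19.96, 31.4, 0 and 83.4 FPKM in plckGAPDH spleens 343, 508, 547 and the unnumbered spleen, against 0, 46.6 and 22.6 FPKM in wild-type spleens 1, 4 and 5. The gene it shares most with, Hist1h2ap (7.35% unique), was at its highest, 816 FPKM, in spleen 547, where Hist1h2ao was listed at 0. The sum of both was 174, 205, 816 and 365 FPKM, against 127, 131 and 147 FPKM, a ratio of group means of 2.89. The sum of Hist2h2aa1 and Hist2h2aa2 was 299, 459, 1191 and 804 FPKM, against 309.5, 258 and 588 FPKM, a ratio of 1.79. Members with 50% or more unique windows had a median log2 fold change of 1.23 (38 members) and those with less 1.34 (25 members), so the split moved the median little. How reads that fit several genes were counted was not given in the sources used here. In 17 members the annotated transcript also runs over 100 bases past the stem-loop, in Hist1h1d by 4884 of 7425 bases, which lowers an FPKM computed over that length.

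**Figure D5:**
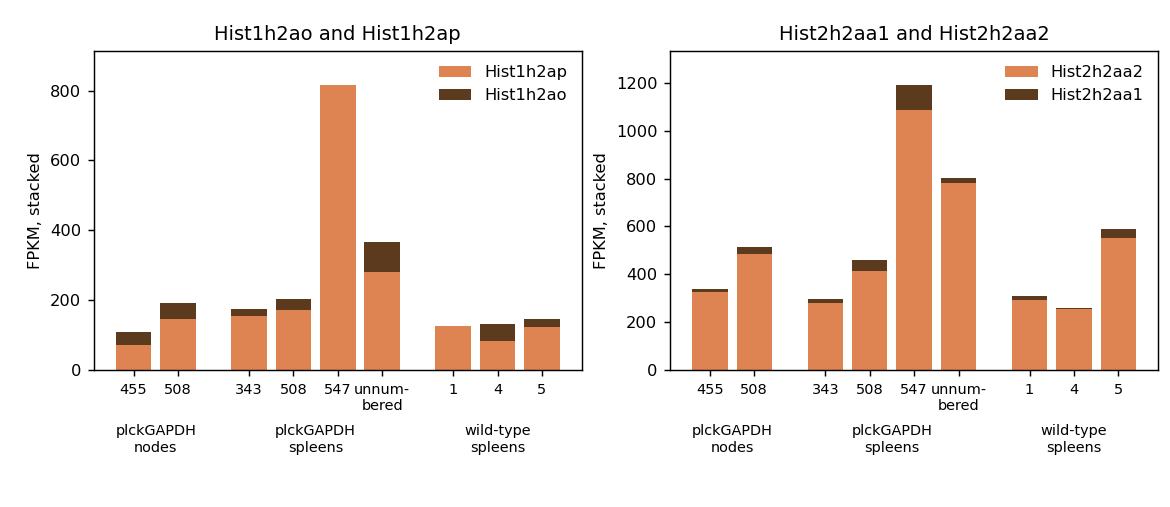
Bars stack the FPKM of near-identical H2A genes in each library, Hist1h2ao on Hist1h2ap at the left and Hist2h2aa1 on Hist2h2aa2 at the right; each bar is 1 library. Hist1h2ao is listed at 0 in plckGAPDH spleen 547 and in wild-type spleen 1, while the sum with Hist1h2ap is 816 FPKM in spleen 547 and 127 to 147 FPKM in the wild-type spleens.

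Divergent H2A and H2B genes that share a promoter region stood at like levels in some pairs and at unlike levels in others. Starts within 500 bases and facing away from each other gave 12 pairs of an H2A and an H2B gene, 10 of them with both tested. The H2B gene had the higher mean FPKM over all libraries in 7 of 10 pairs and the higher log2 fold change in 7 of 10. In the pair whose shared region is printed above, Hist1h2ae had a mean of 36.9 FPKM and Hist1h2bg 267 FPKM, with log2 fold changes of 1.33 and 1.41. Hist1h2ah and Hist1h2bk, with starts 302 bases apart, had means of 10.4 and 182 FPKM and log2 fold changes of 0.76 and 1.80. The reverse order stood in Hist2h2ac (106 FPKM) and Hist2h2be (1.31 FPKM). Hist1h2ac and Hist1h2bc stood level at 70.2 FPKM each, and Hist1h2an and Hist1h2bp had 49.5 and 52.2 FPKM. Several of these H2A genes share most of their sequence with other H2A genes, so their single levels are uncertain.

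In lymph nodes the histone sum was 5113 (455) and 5822 FPKM (508), below that of 3 plckGAPDH spleens and above that of spleen 343. After median-of-ratios scaling it was 6535 and 10671, so that node 508 lay above every plckGAPDH spleen but 547, and as a share of the FPKM column it was 0.392% and 0.218%, so that node 508 lay below all 4. The 5 neutrophil precursor markers summed to 1.22 and 3.12 FPKM in the nodes, against 36.3 to 109.75 FPKM in the plckGAPDH spleens. All 5 were lower with an unadjusted limma p under 0.05 (median log2 fold change -2.18), against 10.7% of all genes. Of these markers 0 were called, against 0.00731% of all genes in each direction. Their part in the histone levels was not tested. The means were 5468 ± 502 FPKM (SD, n = 2) in plckGAPDH nodes and 11493 ± 8425 FPKM (SD, n = 4) in plckGAPDH spleens, a ratio of 0.476, and 0.712 without spleen 547. Of 64 members tested (Hist1h4m in addition to those above) among 13682 genes in a fit over all 9 libraries, 0 were called higher and 0 lower at a limma FDR under 0.05, against 0.00731% of all genes in each direction. No member had an unadjusted limma p under 0.05, against 0.614% of all genes higher and 10.7% lower. The log2 fold change was positive for 2 of 64 members, against 10.8% of all genes. The median was -0.80 over the members and -0.59 over all genes, and the members' median lay 0.21 below that of all genes on the log2 scale (a difference of -0.21). That difference was 0.14 without spleen 547 and 0.07 without node 455, -0.60 without spleen 343 and -0.72 with no filter on low values, so its sign rests on single libraries. After median-of-ratios scaling the medians were -0.08 and -0.01, and 23 of 64 members were positive. In 5 of 64 members (Hist1h2ap, Hist1h2be, Hist1h3b, Hist3h2bb-ps and Hist4h4) both nodes lay below all 4 plckGAPDH spleens, against 30% of all genes, and in 0 both lay above, against 0.49%.

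The lowest log2 fold changes of the node comparison were those of 2 H2A genes and 1 H3 gene. Hist1h2ad (34.5% unique) had 3.19 and 33.2 FPKM in nodes 455 and 508, against 7.53, 36.2, 211 and 17.3 FPKM in plckGAPDH spleens 343, 508, 547 and the unnumbered spleen, with a log2 fold change of -1.48 (limma FDR 0.41). In FPKM the nodes differed from each other by about as much as the spleens other than 547 did, but by a larger factor. Hist1h2ap had 72.5 and 146 FPKM in the nodes, below all 4 plckGAPDH spleens (-1.43). Hist1h3h, an H3 gene, had 27.9 and 43.7 FPKM in the nodes, against 46.1, 38.1, 299 and 125 FPKM in the spleens (-1.35). The positive members were Hist1h2ao, with 37.1 and 44.8 FPKM in the nodes (1.43, limma FDR 0.55), and the non-coding row of Hist2h2bb, with 5.37 and 0 FPKM (0.72). The coding Hist2h2bb came next with -0.23.

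The nodes had like totals in FPKM as deposited, though not as a share of the column, and differed in makeup. Of 60 members with 1 FPKM or more in both, 23 were higher in node 455, and the ratio of 455 over 508 ran from 0.0961 to 3.22 with a median of 0.870. Hist1h1a, a linker histone, had 141 FPKM in node 455 and 43.8 FPKM in node 508, and took 24.2% of the H1 sum in 455 and 6.33% in 508. In the spleens that share was 7.08% to 15.1% (plckGAPDH) and 8.68% to 11.1% (wild type). Coding Hist2h2bb had 302 FPKM in node 455 and 113 FPKM in node 508. H2B genes took 26.8% of the histone sum in node 455 and 19.4% in 508, and H2A genes 16.0% and 22.3%. With 1 library per animal these differences have no replicate check.

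Nodes and wild-type spleens come from different tissues and genotypes, and their values are given side by side only. Node 508 lay above all 3 wild-type spleens in 35 of 63 members, against 7.91% of all genes, although 67.2% of all genes lay below all 3 there. Node 455 lay above in 26 of 63 members, against 11.3% of all genes. With columns scaled to one total these counts were 6 (508, 2.52% of all genes) and 33 (455, 13.8%), and after median-of-ratios scaling 60 (36.8%) and 47 (31%). Mki67 was at 29.7 FPKM in node 455 and 18.6 FPKM in node 508, beside 6.37 to 22.8 FPKM in the wild-type spleens. Within animal 508, the node was below the spleen in 47 of 63 members, against 87.9% of all genes.

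The genes that act on histone mRNA lay closer to the median of all genes than the histone genes did. Of a list of 33 factors for histone transcription, 3′ end processing and decay, 29 were tested between the spleens, 21 were positive, against 51.6% of all genes, and 0 were called, against 0.206% higher and 1.23% lower of all genes; the median log2 fold change was 0.17 against 0.02 over all genes. Slbp, named here for its role although outside the naming rule, had 30.1, 17.9, 57.5 and 49.1 FPKM in plckGAPDH spleens 343, 508, 547 and the unnumbered spleen, against 28.7, 24.0 and 34.8 FPKM in wild-type spleens 1, 4 and 5 (log2 fold change 0.28, limma FDR 0.98). The wild-type values lay inside the range of the plckGAPDH values. Zcchc11, a terminal uridylyltransferase linked to histone mRNA decay, had 28.6, 11.4, 20.5 and 20.5 FPKM, against 55.2, 25.4 and 51.3 FPKM (-1.07, limma FDR 0.47). The cyclins E, which activate Cdk2 at the start of S phase, had log2 fold changes of 0.90 (Ccne2) and 0.61 (Ccne1), and each was highest in spleen 547.

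Of 22 histone chaperones and supply factors, all tested, 19 were positive, against 51.6% of all genes, with a median of 0.35. Of them 0 were called, against 0.206% higher and 1.23% lower of all genes. In 3 of 22 (Chaf1a, Asf1b and Hira, the last named after its values were seen) every plckGAPDH spleen lay above every wild-type spleen, against 3.39% of all genes. Chaf1a, a subunit of the chaperone CAF-1 that places H3 and H4 on new DNA, had 2.31, 1.83, 10.8 and 5.83 FPKM in plckGAPDH spleens 343, 508, 547 and the unnumbered spleen, against 1.01, 1.13 and 0.91 FPKM in wild-type spleens 1, 4 and 5 (1.38, limma FDR 0.31). Asf1b, an H3-H4 chaperone of cycling cells, had 7.61, 8.41, 16.8 and 15.8 FPKM, against 4.49, 4.53 and 4.96 FPKM (1.14, limma FDR 0.30). In both genes the wild-type values lay close together and spleen 547 was highest. Mcm2, a subunit of the replicative helicase, had a log2 fold change of 0.81.

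Histone variants outside the clusters are expressed throughout the cell cycle for the most part, and their mRNAs are largely polyadenylated. Of 15 such genes 9 were tested, 7 were positive, against 51.6% of all genes, with a median of 0.52. Of the 9, 0 were called, against 0.206% higher and 1.23% lower of all genes. H2afx, the variant phosphorylated at DNA breaks, had 17.4, 47.5, 144.5 and 40.3 FPKM in plckGAPDH spleens 343, 508, 547 and the unnumbered spleen, against 15.9, 15.4 and 20.8 FPKM in wild-type spleens 1, 4 and 5 (1.40, limma FDR 0.49). H1f0, the linker histone of resting and differentiated cells, had 6.09, 30.0, 13.2 and 14.1 FPKM, against 3.93, 4.14 and 6.22 FPKM (1.38, limma FDR 0.32). It was highest in spleen 508 rather than 547. H2afz had a log2 fold change of 1.08. In the node comparison the 3 lists had medians of -0.77, -0.84 and -0.59, against -0.59 over all genes. There 0 genes of the lists were called, against 0.00731% of all genes in each direction.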

How the data were processed

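RNA-seq of 9 libraries was used. Per the labels' protocols, libraries were made from 500 ng of total RNA with a stranded total RNA kit and read as 2 reads of 75 bases. The deposited values are FPKM with 2 decimals. The submitters' processing notes name STAR 2.4.0a, featureCounts, Subread 1.5.0-p3, RSEM, Bowtie2 2.2.6 and mm10; which of them made the FPKM, and on which annotation, was not given in the sources used here. Low FPKM fell on whole multiples of 1 fragment (80.8% to 85.3% of values, against 17.9% to 19.8% by chance), which gave an estimated 23900000 to 34700000 fragments per library and a median of 315 to 3453 per member; this covers counting error only. Mitochondrial ribosomal RNA took 23.6% to 53.5% of fragments, and FPKM columns summed to 1028800 to 2667330. Over 36 pairs of libraries at most 0.257% of values were identical.

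Groups were compared in R 4.3.3 with limma 3.58.1 (eBayes with trend, two-sided) on log2 of FPKM + 1, with Benjamini-Hochberg adjustment over all genes tested: spleens alone (1 FPKM in 3 spleens), and nodes in a fit of 3 groups over 9 libraries (1 FPKM in 2 samples). The fits were tested on simulated data. A further erythroid marker is not reported here. No count model was used. Figures were drawn with matplotlib 3.10.9. Positions and shared sequence come from GENCODE vM21 transcripts (GRCm38), where 69 members matched by ID and 2 by symbol.

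Genes were named by rule: Mki67, the 3 members with the highest mean of each class, the 3 with the highest and the 3 with the lowest log2 fold change in each comparison, the Hist3 and Hist4 clusters, the testis histones, and the 3 genes of each list with the largest change between spleens. The members, lists and tests were chosen with earlier results of these data known. Alternatives were the pseudocount (0.1), low-value filters (none, or a mean of 5 FPKM), scaling, sample weights, the samples in the fit, sums by class and leaving out each library; a restriction to members with 50% unique windows and the 2 scalings of the values per library were added after the data were seen.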

Additional observations from a re-analysis of the deposited data

Results flagged for a closer look

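In 4 of 70 items examined (the 63 tested members, class and summary values), the highest of the 4 plckGAPDH spleens stood far from the others; the gap to the nearest exceeded Dixon's critical share of the whole range for 4 samples, which chance exceeds in about 1 in 20 groups. With 70 items examined, 4 flagged items are close to that share, so the count does not set these members apart. All 4 were H2A genes in spleen 547, which was the highest of the 7 spleens in 57 of 63 members, against 37.1% of all genes. Hist1h2ae stood at 169.8 FPKM there, against 19.1 to 26.7 FPKM in the other 3 plckGAPDH spleens. Hist1h2ah stood at 60.5 FPKM, with the next highest at 5.06 FPKM. Hist1h2ad stood at 211 FPKM, with the next highest at 36.2 FPKM. Hist1h2ai stood at 179 FPKM, with the next highest at 21.2 FPKM. Under 50% of the windows were unique in Hist1h2ad, Hist1h2ah and Hist1h2ai, and 65.6% in Hist1h2ae; the part of shared reads was not tested.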

How the results depend on the processing

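No paired analysis was possible because the groups compared share fewer than 2 animal numbers. Between spleens, the median log2 fold change of the members was 1.13 to 1.49 over the alternatives that keep all libraries and 0.84 to 1.65 when 1 library was left out, and the ratio of summed FPKM was 1.90 to 3.48. The number of members called was 49 with sample quality weights (7.07% of all genes called higher) and 0 to 7 when 1 library was left out (7 without spleen 343, 0.661% of all genes; 0 without each other spleen, 0.0408% to 0.341%); the cause was not tested. Mki67 had a limma FDR of 0.0423 and a log2 fold change of 2.44 without spleen 343, and of 0.00477 with quality weights. Between nodes and plckGAPDH spleens the median was -1.23 to -0.35 with 1 library left out, the ratio of sums 0.389 to 0.712, and 0.905 after median-of-ratios scaling; the members' median lay 0.14 above that of all genes without spleen 547 and 0.07 above it without node 455.

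Several single genes changed sign, each without passing the test in either setting. Between nodes and plckGAPDH spleens, median-of-ratios scaling gave log2 fold changes of 0.32 (Hist1h1e), 0.17 (Hist1h1c), 0.28 (Hist2h2aa2), 0.078 (Hist1h3f), 0.11 (Hist1h3e), 0.0050 (Hist1h4d), 0.37 (Hist1h4c), 0.034 (Hist1h4n), 0.12 (Hist1h2bk), 0.55 (coding Hist2h2bb), 0.12 (Hist3h2a), 0.071 (Ccne2), 0.041 (Asf1b), 0.033 (H2afx), 0.64 (H1f0) and 0.43 (H2afz). With 1 library left out, the lowest and highest values of the genes that turned were, between spleens, -1.30 and 0.016 (Hist1h2ai), -0.48 and 0.023 (Hist2h2be) and -1.12 and 1.89 (Hist1h2ao), and between nodes and plckGAPDH spleens, -0.46 and 0.29 (H1f0), -0.93 and 0.48 (coding Hist2h2bb), -2.19 and 0.30 (Hist1h2ai), -0.62 and 2.05 (non-coding Hist2h2bb), -2.99 and 0.039 (Hist1h2ad) and -1.47 and 0.020 (H2afx). The cause was not tested. Where a node was left out, the other was assumed to vary like the spleens. An estimated 315 to 3453 fragments lay behind the median member. Members at low levels, such as Hist2h2be and the non-coding row of Hist2h2bb, rest on fewer fragments. The part of counting error in the changes of sign was not tested.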
